A study of Rattus norvegicus with 21 samples.

Results

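Aminoacyl-tRNA synthetases are the enzymes that join each amino acid to its tRNA, the step that supplies the ribosome with charged tRNA. In mammals most amino acids have a cytosolic enzyme, written with a 1 at the end of its symbol, and a separate mitochondrial enzyme, written with a 2, both made from nuclear genes. When amino acids run short, uncharged tRNA activates the kinase GCN2, eIF2 is phosphorylated and the transcription factor ATF4 is translated, and several cytosolic synthetase genes are among the known ATF4 targets together with genes for serine and asparagine synthesis.

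The family was chosen for description with earlier results of these data known, so its shares beside those of all genes have no test. Its members were set by symbol, as every gene written with 1 amino acid letter and ars, with or without a final 1 or 2. The rule also took Eprs1, the fused glutamyl- and prolyl-tRNA synthetase. The rule found 30 genes among the 14218 genes that the arrays measured with at least 1 probe set of their own. Of these, 17 were cytosolic and 13 mitochondrial. Kars1 and Gars1, counted as cytosolic, are known to make the mitochondrial enzyme as well. Where a gene had several probe sets the one with the highest mean over all arrays was used, which was the case for 13 of the 30 genes. All 30 had mean levels above the 20th percentile of all genes.

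Liver RNA was measured on arrays from male rats of the Harlan Sprague-Dawley strain given 2-ethylhexyl diphenyl phosphate (EHDP), a plasticiser and flame retardant of the organophosphate type, by oral gavage in corn oil on 4 days in a row. The groups compared were the corn oil vehicle (6 arrays) and EHDP at 61.2, 122.5, 244.6, 489.2 and 978.5 mg/kg (3 arrays each). The treatment protocol names 5 vehicle rats while 6 arrays carry the vehicle label, and the sources used here do not tell which arrays, if any, share a rat. The age of the rats is not given there. All groups carried corn oil and the gavage, and the liver was sampled as pieces of whole tissue, so fewer cells of a type and less RNA per cell cannot be told apart.

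Values are log2 signals as deposited, so a difference of 1 is a doubling, and a gene was said to have risen or fallen where limma's adjusted p over all 14218 genes was under 0.05. Array medians lay between 6.33 and 6.41, and each array correlated with the rest at a mean of 0.988 (vehicle replicate 6, the lowest) to 0.994. No pair of arrays was identical. Hepatocyte markers averaged 13.78 to 13.98 on the 978.5 mg/kg arrays and 13.75 to 13.99 on the vehicle arrays.

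At 978.5 mg/kg 7 of the 30 synthetase genes rose and 1 fell against vehicle. The cytosolic genes that rose were Iars1 and Lars1, which charge isoleucine and leucine tRNA, Nars1 for asparagine and Aars1 for alanine. The mitochondrial genes that rose were Iars2, Yars2 and Rars2, for isoleucine, tyrosine and arginine. Hars2, the mitochondrial histidyl-tRNA synthetase, fell. The changes were modest, between 1.24-fold for Rars2 and 1.52-fold for Iars2 among the genes that rose. Of all genes tested, 10.2% passed the same test at this dose, against 26.7% of the synthetase genes. The share of all genes that rose was 6.18%, against 23.3% of the synthetase genes, and the share that fell was 4.07%, against 3.33%.

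The promoters are shown because ATF4 is a known regulator of several cytosolic genes of this family and a short element can be looked for in the sequence. RefSeq start site windows of build GRCr8, from 250 bases before to 50 bases after the start, were available for 28 of the 30 genes, all but Gars1 and Rars1. The letters TGATGNAA, the core of the composite element that ATF4 binds with C/EBP partners, were searched on both strands. They occurred in 7 of the 28 windows, or 25.0%, against 3.98% of the 33469 windows of all genes and 2.39% of the 11701 genes on the array that have a window. All 7 were cytosolic genes, out of 15 with a window, and none of the 13 mitochondrial windows held it. A stretch around 1 match of each of the 7 genes is given below on the strand of the gene, 5′ to 3′, with the match in capitals.
Aars1, position 10, chr19:55908480-55908509, plus strand: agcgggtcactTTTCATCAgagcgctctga
Cars1, position 18, chr1:208225334-208225363, minus strand: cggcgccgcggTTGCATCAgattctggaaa
Iars1, position -24, chr17:15193658-15193687, minus strand: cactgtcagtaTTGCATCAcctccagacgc
Mars1, position -17, chr7:65023752-65023781, minus strand: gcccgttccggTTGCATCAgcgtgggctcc
Nars1, position -14, chr18:60275778-60275807, minus strand: cctaggtgatcTGATGCAAcgcttcagtca
Tars1, position -27, chr2:62114811-62114840, minus strand: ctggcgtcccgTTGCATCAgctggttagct
Yars1, position 39, chr5:146820190-146820212, plus strand: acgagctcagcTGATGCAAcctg

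The position given is that of the first base of the match, counted from the start site, with negative numbers upstream of it. Aars1 held a further match, not shown, at position -112 with the same letters as that of Cars1. Of the 7 genes with a match, Aars1, Iars1 and Nars1 rose at 978.5 mg/kg, while Lars1 rose with no match in its window. Cars1, Mars1, Tars1 and Yars1 held a match and did not pass the test at this dose, and Tars1 had a lower mean at 978.5 mg/kg than in vehicle. A match of letters describes these windows only. The windows of Asns, Psat1 and Phgdh, described further on, held no match. Bases outside the windows were not searched, so no match there does not mean that a gene lacks the element.

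**Figure D1:**
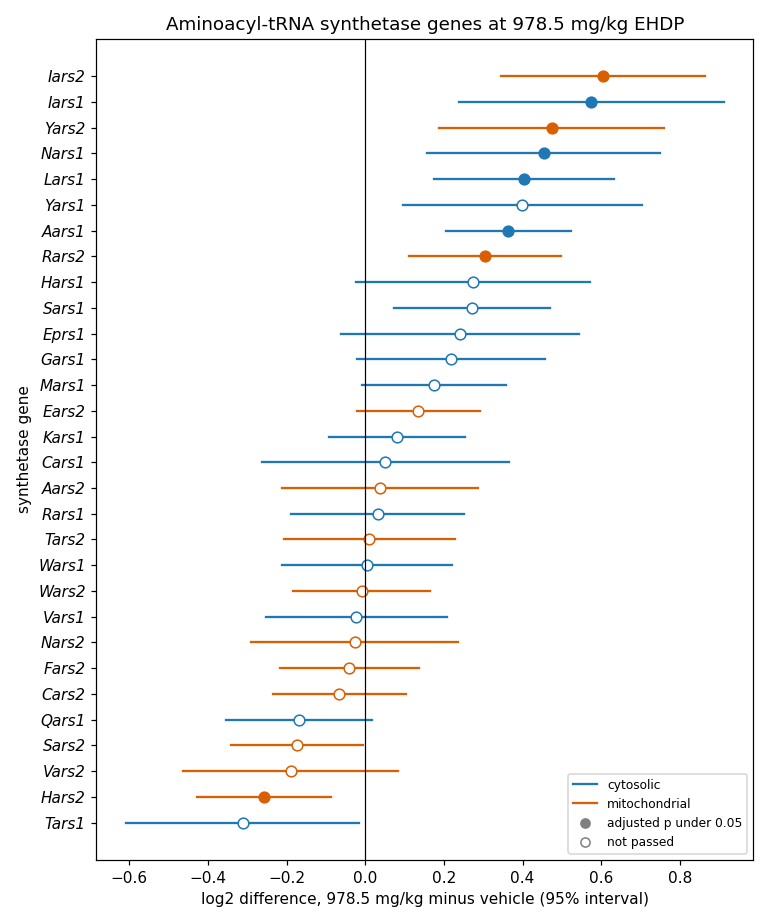
Log2 difference of each of the 30 synthetase genes at 978.5 mg/kg minus vehicle (horizontal axis), with its 95% interval, sorted by size. Blue lines are cytosolic and orange lines mitochondrial genes, and filled points passed the test. Iars2 at 0.60 and Iars1 at 0.57 lie at the top, and Tars1 at -0.31 and Hars2 at -0.26 at the bottom.

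Aars1, alanyl-tRNA synthetase, was the gene whose call held under every alternative tried at the highest dose. Its signal was 12.004, 11.934 and 11.872 on the 978.5 mg/kg arrays, against 11.46, 11.56 and 11.71 (lowest, median and highest) on the vehicle arrays. All 3 treated arrays lay above all 6 vehicle arrays. The difference was 0.36 ± 0.08 (SE) on the log2 scale, or 1.29-fold (limma adjusted p = 0.00441). Over the dose series the means were 11.57 in vehicle and then 11.71, 11.58, 11.61, 11.82 and 11.94 from 61.2 to 978.5 mg/kg, and the upper 2 doses had the highest means.

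Iars2, the mitochondrial isoleucyl-tRNA synthetase, had the largest difference of the family. It measured 8.80, 8.65 and 9.20 at 978.5 mg/kg, against 8.09, 8.30 and 8.49 (lowest, median and highest) in vehicle. The groups did not overlap. The difference was 0.60 ± 0.12 (limma adjusted p = 0.00376). At the 4 lower doses the differences were 0.31, 0.27, 0.23 and 0.22 in rising order of dose, none of which passed. The call at 978.5 mg/kg rested partly on replicate 3 of that dose, the highest array, since without it the difference was 0.45 and adjusted p = 0.0505.

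Iars1, the cytosolic enzyme for the same amino acid, measured 9.97, 9.58 and 9.82 at 978.5 mg/kg, against 8.80, 9.15 and 9.63 in vehicle. The 978.5 mg/kg array at 9.58 lay below the highest vehicle array, replicate 6, so the groups overlapped by this 1 array. The difference was 0.57 ± 0.16 (limma adjusted p = 0.0277), and a second, dimmer probe set of the gene gave 0.13. Without replicate 1 of the dose its adjusted p was 0.137, without replicate 3 it was 0.107, and without vehicle replicate 2 it was 0.0525.

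Lars1, leucyl-tRNA synthetase, a partner of Iars1 in the multi-synthetase complex and a known leucine sensor of the mTORC1 pathway, measured 10.42, 10.17 and 10.43 at 978.5 mg/kg, against 9.73, 9.90 and 10.26 in vehicle. Replicates 1 and 3 of the dose lay above all vehicle arrays. The difference was 0.40 ± 0.11 (limma adjusted p = 0.0233), and the second probe set gave 0.45 with adjusted p = 0.00435 over all probe sets. The call was lost where replicate 1 of the dose was left out (adjusted p = 0.102) and where replicate 3 was (0.128).

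Nars1, asparaginyl-tRNA synthetase, measured 10.84, 10.68 and 10.83 at 978.5 mg/kg, against 9.92, 10.38 and 10.75 in vehicle. Its vehicle arrays spread over 0.30 (SD, n = 6), more than the 0.09 of the 3 treated arrays. The difference was 0.45 ± 0.14 (limma adjusted p = 0.0457), close to the threshold, and it passed in 7 of the 17 alternatives. It was lost without vehicle replicate 1, 2, 4 or 5 and without any 1 array of the dose, with an adjusted p of up to 0.162.

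Among the mitochondrial genes, Yars2, tyrosyl-tRNA synthetase, measured 8.79, 8.42 and 9.07 at 978.5 mg/kg, against 8.06, 8.26 and 8.62 in vehicle. The array at 8.42 lay within the vehicle range. The difference was 0.47 ± 0.14 (limma adjusted p = 0.0322) and was lost without replicate 3 of the dose, where it was 0.32 with adjusted p = 0.246, and also without replicate 1 of the dose or without any 1 of vehicle replicates 1 to 4. Rars2, arginyl-tRNA synthetase of the mitochondria, measured 8.44, 8.54 and 8.48 at 978.5 mg/kg, against 7.98, 8.16 and 8.48 in vehicle. Its difference of 0.31 ± 0.09 (limma adjusted p = 0.0398) was near those at 122.5 mg/kg (0.26) and 489.2 mg/kg (0.22), which did not pass. It passed in 8 of the 17 alternatives and was lost without any 1 of vehicle replicates 1 to 5 or any 1 array of the dose, with an adjusted p of up to 0.125.

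Hars2, the mitochondrial histidyl-tRNA synthetase, was the only synthetase gene that fell at 978.5 mg/kg. It measured 7.74, 7.61 and 7.85 at that dose, against 7.92, 8.0 and 8.07 (lowest, median and highest) in vehicle. All 3 treated arrays lay below all 6 vehicle arrays. The difference was -0.26 ± 0.08 (limma adjusted p = 0.0494), just under the threshold, and it passed in 2 of the 17 alternatives. Leaving out any 1 of the 9 arrays compared ended the call, with differences between -0.32 and -0.20. At 489.2 mg/kg the groups did not overlap either, with 7.84, 7.72 and 7.78, while the adjusted p was 0.208. A second probe set of Hars2 gave -0.12.

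Hars1 and Hars2 lie head to head on rat chromosome 18 and are transcribed away from each other. Their start site windows share 243 bases. The 97 bases between the annotated gene spans are shown because the pair had opposite differences at 978.5 mg/kg, and they are given on the strand of Hars2.
chr18:28672713-28672809, plus strand: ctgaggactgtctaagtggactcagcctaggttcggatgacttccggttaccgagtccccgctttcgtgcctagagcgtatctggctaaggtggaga

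Hars1 itself did not pass by its brighter probe set. It measured 8.64, 8.68 and 9.0 at 978.5 mg/kg, against a vehicle range of 8.09 to 8.78, a difference of 0.27 ± 0.14 (limma adjusted p = 0.244). Its second, dimmer probe set gave 0.67 with adjusted p = 0.0207 over all probe sets. Gars1, glycyl-tRNA synthetase, was alike in this respect, with 0.22 ± 0.11 by the brighter probe set and 0.53 by the dimmer one (adjusted p = 0.0186 over all probe sets). Cars1 had 4 probe sets with differences of 0.05, 0.06, 0.50 and 0.04, none of which passed. For Iars1 the brighter probe set passed over all probe sets (limma adjusted p = 0.0313) and the dimmer one did not (0.537). For Hars2 neither probe set passed over all probe sets (limma adjusted p = 0.0568 and 0.583). The call therefore depended on the probe set for Hars1, Gars1 and Iars1.

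**Figure D2:**
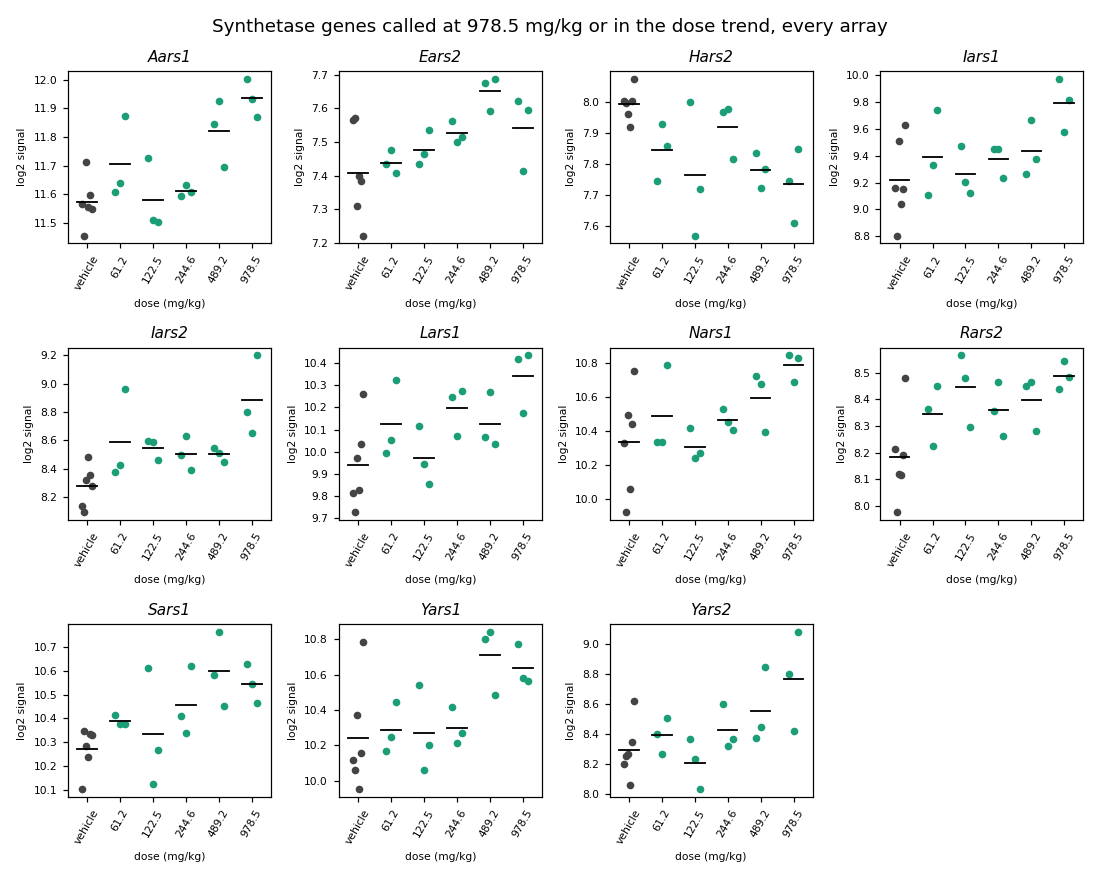
Log2 signal (vertical axis) of 11 synthetase genes on every array, by dose in mg/kg (horizontal axis), with vehicle at the left and a bar at each group mean. Aars1 and Iars2 show all 978.5 mg/kg arrays above the vehicle arrays, and Hars2 shows them below, while Yars1 has 1 vehicle array among the treated ones.

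Over the ordered doses, with vehicle as rank 0 and 978.5 mg/kg as rank 5, 10 synthetase genes rose and none fell. Of all genes, 6.06% rose and 5.12% fell in this test. The genes were Iars2, Yars2, Rars2, Iars1, Lars1, Nars1 and Aars1, which also rose at the highest dose, and Sars1, Yars1 and Ears2, which did not pass there. Their slopes lay between 0.04 and 0.09 log2 units per rank. The test uses the same vehicle and 978.5 mg/kg arrays as the comparison above, so it is not separate evidence, and with the treated arrays alone 1 synthetase gene, Eprs1, passed. Leaving out 1 array gave 3 to 10 genes, with 3 without vehicle replicate 4 or without replicate 1 of 978.5 mg/kg, 4 without replicate 3 of that dose, and 5 without vehicle replicate 1 or 2. The 4 were Aars1, Sars1 and Yars1, which rose, and Hars2, which fell. The shares of all genes called with the treated arrays alone or with 1 array left out are not given here. Hars2 had a limma adjusted p of 0.0574 with all arrays, and its downward trend passed in 5 of the 21 fits with 1 array left out. Aars1 and Sars1 passed with any 1 array left out.

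Sars1, seryl-tRNA synthetase, had the smallest adjusted p of the family after Aars1 in the dose trend (slope 0.06, limma adjusted p = 0.0124). It measured 10.63, 10.54 and 10.47 at 978.5 mg/kg, against 10.10, 10.31 and 10.35 (lowest, median and highest) in vehicle. The groups did not overlap, nor did they at 61.2 mg/kg (10.41, 10.38 and 10.38) or 489.2 mg/kg (10.58, 10.76 and 10.45). At 122.5 mg/kg the arrays read 10.61, 10.13 and 10.27, of which 1 was above the vehicle range.

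Yars1, the cytosolic tyrosyl-tRNA synthetase, stood higher at the upper 2 doses. Group means were 10.24 in vehicle and 10.29, 10.27, 10.30, 10.71 and 10.64 from 61.2 to 978.5 mg/kg. The vehicle range reached 10.79 because of replicate 6, while the other 5 vehicle arrays lay at or below 10.37. At 978.5 mg/kg the arrays read 10.78, 10.58 and 10.56, and the difference was 0.40 ± 0.15 (limma adjusted p = 0.0885). The trend passed with a slope of 0.09 (limma adjusted p = 0.0261), but not without vehicle replicate 2 (0.0516), vehicle replicate 4 (0.0545) or replicate 1 of 978.5 mg/kg (0.0767).

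Ears2, the mitochondrial glutamyl-tRNA synthetase, measured 7.68, 7.59 and 7.69 at 489.2 mg/kg and 7.62, 7.41 and 7.59 at 978.5 mg/kg, against 7.22, 7.39 and 7.57 (lowest, median and highest) in vehicle. The 489.2 mg/kg arrays lay above all vehicle arrays, and those at 978.5 mg/kg overlapped them. The trend slope was 0.04 (limma adjusted p = 0.045), and it passed in 7 of 29 alternatives.

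At the 4 lower doses no synthetase gene passed the test against vehicle by limma. Of all genes, 0.0141% were called at the lowest dose, all higher, and 0.113% at the next, again all higher. At 244.6 mg/kg 2.95% were called (2.52% higher and 0.429% lower), and 2.9% were at 489.2 mg/kg (1.51% higher and 1.39% lower). At an unadjusted p under 0.05, 1, 4, 1 and 7 of the 30 genes were counted in the same order of dose, which is 3.33%, 13.3%, 3.33% and 23.3% of them. Of all genes, 5.48%, 6.06%, 14% and 14.5% were below that p. The lowest limma adjusted p was 0.0729, for Sars1 at 489.2 mg/kg (0.32 ± 0.09). At that dose Yars1 had the largest difference, 0.47 ± 0.15 (limma adjusted p = 0.0966), and Aars1 had 0.25 ± 0.08 (limma adjusted p = 0.0901). Set directly against each other, the upper 2 doses gave no synthetase gene past the threshold, while 0.106% of all genes passed. In that comparison 3 synthetase genes (10.0%) had an unadjusted p under 0.05, a share below the 13.6% of all genes, and the lowest limma adjusted p was 0.253, for Iars2. The difference of Tars1 there was -0.39 ± 0.16, which did not pass. All 978.5 mg/kg arrays lay above the 489.2 mg/kg arrays for Iars2 (7.62% of all genes) and below them for Qars1, Sars2 and Tars1 (9.24% of all genes).

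Groups that did not overlap with vehicle were counted as a plain description of the arrays. All treated arrays lay above all vehicle arrays for Cars2, Fars2 and Sars1 at 61.2 mg/kg, where 1.48% of all genes did so. Cars2 was the 1 such gene at 122.5 mg/kg (1.81% of all genes), and there was none at 244.6 mg/kg (5.51%). Ears2 and Sars1 did so at 489.2 mg/kg (3.54%), and Aars1, Iars2 and Sars1 at 978.5 mg/kg. Below all vehicle arrays, Hars2 was the 1 gene counted at 489.2 mg/kg (2.88% of all genes) and at 978.5 mg/kg (6.79%). No synthetase gene lay below vehicle in this way at the lower doses, against 0.893%, 1.24% and 3.07% of all genes. At 978.5 mg/kg the 10.0% of synthetase genes above vehicle stood near the 6.74% of all genes.

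**Figure D3:**
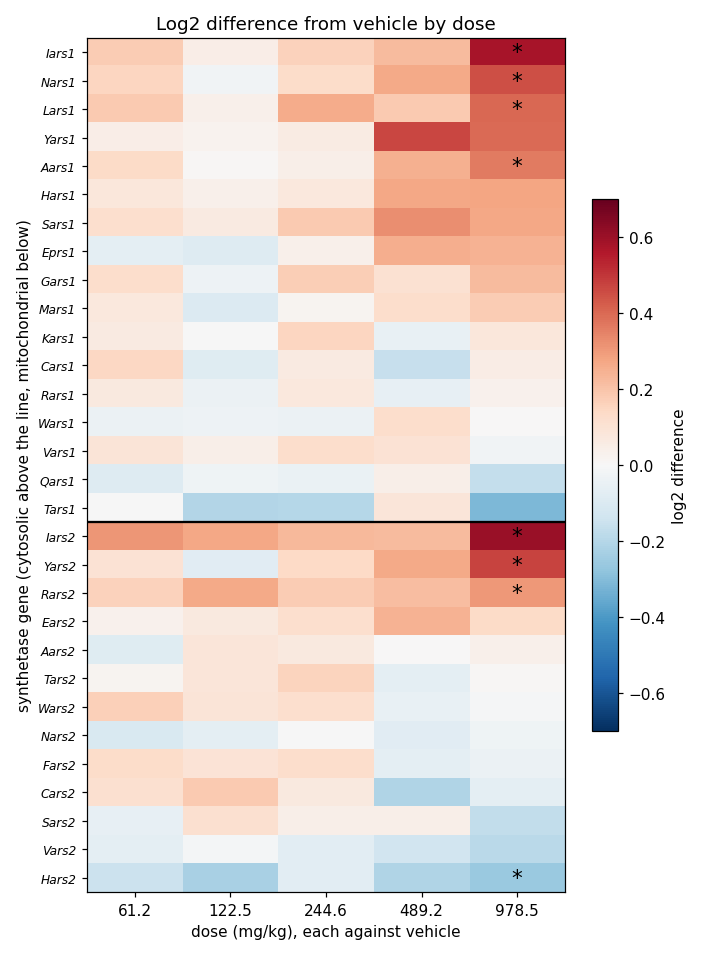
Log2 difference from vehicle of the 30 synthetase genes (rows, cytosolic above the line and mitochondrial below) at the 5 doses in mg/kg (columns), red for higher and blue for lower, with stars where limma's adjusted p was under 0.05. Stars stand in the 978.5 mg/kg column alone, 4 among the cytosolic and 4 among the mitochondrial genes.

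The cytosolic and mitochondrial enzymes were set side by side. At 978.5 mg/kg 4 of 17 cytosolic genes rose (23.5%) and 0 fell, with a median difference of 0.22, and 14 lay above 0. Of the 13 mitochondrial genes 3 rose (23.1%) and 1 fell (7.69%), with a median of -0.01, and 6 lay above 0. The shares that rose were thus near each other, and of all genes 6.18% rose and 4.07% fell. The median over all 30 synthetase genes was 0.07 and over all genes -0.02. At 61.2, 122.5, 244.6 and 489.2 mg/kg the cytosolic medians were 0.08, -0.02, 0.07 and 0.12, and the mitochondrial medians were 0.03, 0.09, 0.12 and -0.05. Neither group therefore stood above the other at every dose.

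For 12 amino acids both a cytosolic and a mitochondrial gene were measured, and in 8 pairs the cytosolic gene had the higher difference at 978.5 mg/kg. Isoleucine was the one pair in which both genes rose, Iars1 by 0.57 and Iars2 by 0.60. For alanine Aars1 rose and Aars2 had 0.04 ± 0.12, and for asparagine Nars1 rose and Nars2 had -0.03 ± 0.13. For arginine the mitochondrial Rars2 rose while the cytosolic Rars1 had 0.03 ± 0.11, and for tyrosine Yars2 rose while Yars1 did not pass at 0.40. Whether the 2 genes of a pair differed from each other in response was not tested.

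The remaining cytosolic genes did not pass at 978.5 mg/kg. Eprs1 had 0.24 ± 0.14, Mars1, methionyl-tRNA synthetase, 0.18 ± 0.09, Kars1, lysyl-tRNA synthetase, 0.08 ± 0.08, and Cars1, cysteinyl-tRNA synthetase, 0.05 ± 0.15. Wars1, tryptophanyl-tRNA synthetase and a known interferon-induced gene, had 0.00 ± 0.10 with a 95% interval of -0.21 to 0.22. Vars1, valyl-tRNA synthetase, had -0.02 ± 0.11, and Qars1, glutaminyl-tRNA synthetase, -0.17 ± 0.09. Tars1, threonyl-tRNA synthetase, had the lowest value of the family at -0.31 ± 0.14 (limma adjusted p = 0.177), and its 978.5 mg/kg arrays read 11.33, 11.08 and 11.03, against 11.16 to 11.69 in vehicle, with 2 of 3 arrays below the vehicle range.

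The remaining mitochondrial genes lay close to vehicle or lower. Tars2 had 0.01 ± 0.10, Wars2 -0.01 ± 0.08, Fars2, phenylalanyl-tRNA synthetase, -0.04 ± 0.08, and Cars2 -0.07 ± 0.08. Sars2 had -0.17 ± 0.08, opposite in sign to the cytosolic Sars1 at 0.27 ± 0.09, and Vars2 had -0.19 ± 0.13. None of these 6 passed. Lars2, Mars2 and Pars2 were not analysed here.

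By enzyme class, 5 of 17 class I genes rose at 978.5 mg/kg (Iars1, Iars2, Lars1, Rars2 and Yars2), or 29.4%, with a median of 0.14. Of 13 class II genes 2 rose (Aars1 and Nars1), or 15.4%, and 1 fell (Hars2), or 7.69%, with a median of 0.04. Of all genes, 6.18% rose and 4.07% fell. These classes divide the synthetases by the fold of the catalytic core, and Eprs1, which holds an enzyme of each, was counted with class I. Of the 7 measured enzymes of the multi-synthetase complex, Eprs1, Iars1, Kars1, Lars1, Mars1, Qars1 and Rars1, 2 rose (Iars1 and Lars1, 28.6% against 6.18% of all genes) and 6 lay above 0.

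The vehicle arrays themselves differed in the cytosolic genes. On each array the median over the 17 cytosolic genes, taken as the difference from the vehicle mean, ran from -0.22 on vehicle replicate 2 to 0.27 on vehicle replicate 6. On the 978.5 mg/kg arrays it was 0.24, 0.10 and 0.19, all within that vehicle range. The mitochondrial median stayed between -0.03 and 0.03 on the vehicle arrays and was 0.16, -0.07 and 0.01 at 978.5 mg/kg. Vehicle replicate 6 was the highest vehicle array for 11 of 17 cytosolic genes and replicate 2 the lowest for 11 of 17. For Eprs1, replicate 6 read 12.19 while the other 5 lay between 11.27 and 11.71.

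**Figure D4:**
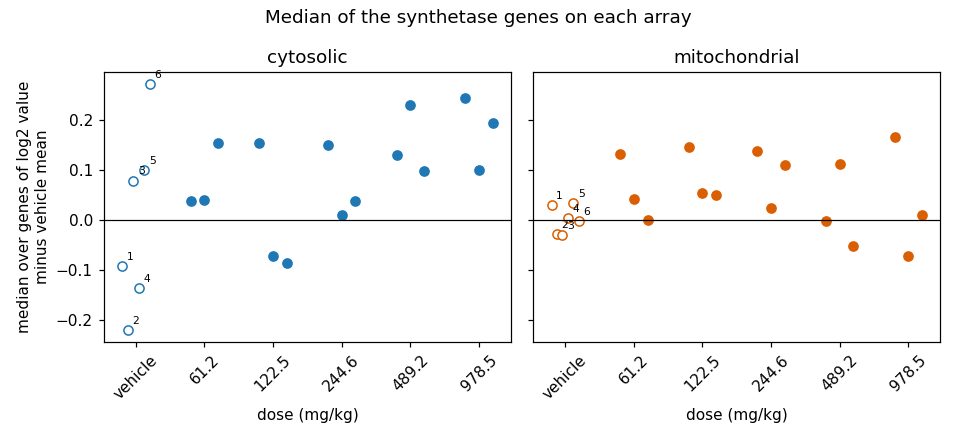
Median over the cytosolic genes (left) and over the mitochondrial genes (right) of the log2 value minus the vehicle mean, on each array, by dose in mg/kg, with the vehicle replicates numbered and drawn open. Vehicle replicate 6 at 0.27 and replicate 2 at -0.22 bound the cytosolic values of the vehicle group, and the 3 arrays at 978.5 mg/kg lie between 0.10 and 0.24.

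Without vehicle replicate 6, 9 synthetase genes were called at 978.5 mg/kg, all of them higher, and 11.2% of all genes passed, with 7.01% higher. Eprs1 then passed with 0.36 and Yars1 with 0.51 (limma adjusted p = 0.0264 and 0.00761), and Hars2 did not (adjusted p = 0.073). At 489.2 mg/kg Eprs1 and Yars1 passed without that array. What set replicate 6 apart was not tested.

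Of 19 measured partners and other charging genes, 1 rose at 978.5 mg/kg and 0 fell, with a median of 0.12. The 1 gene is 5.26% of the list, near the 6.18% of all genes that rose. This gene was Xpot, which encodes the exportin that carries tRNA out of the nucleus. Xpot measured 8.50, 8.41 and 8.95 at 978.5 mg/kg, against 6.97, 7.77 and 8.29 (lowest, median and highest) in vehicle. All 3 treated arrays lay above the vehicle arrays, and the difference was 0.90 ± 0.19 (limma adjusted p = 0.00543), lost without replicate 3 of the dose (adjusted p = 0.0603). The phenylalanyl-tRNA synthetase subunits Farsa and Farsb and the threonyl-tRNA synthetase Tars3, which the symbol rule leaves out, were among the genes of this list that did not pass.

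Of 30 genes listed as answering amino acid shortage through ATF4, 11 rose (36.7%, against 6.18% of all genes) and 1, Cbs, fell (3.33%, against 4.07%) at 978.5 mg/kg. Cbs, Cth and Slc3a2 are named after their values were seen. The median of this list was 0.17. The largest were Psat1, phosphoserine aminotransferase, at 2.18 ± 0.29, Asns, asparagine synthetase, at 1.85 ± 0.27, Ddit4 at 1.74 ± 0.35, Phgdh, the first enzyme of serine synthesis, at 1.65 ± 0.31, and the mitochondrial folate enzyme Mthfd2 at 0.95 ± 0.26 (limma adjusted p from 9.54e-05 for Psat1 to 0.0231 for Mthfd2). Mthfd2 was lost without replicate 1 or replicate 3 of the dose. The signal of Asns was 10.02, 9.74 and 9.72 at 978.5 mg/kg, against 7.51, 7.96 and 8.48 in vehicle, with no overlap. These differences were larger than that of any synthetase gene.

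Some of the best known ATF4 pathway genes did not pass at this dose. Atf4 itself had 0.26 (limma adjusted p = 0.414), Ddit3, which encodes CHOP, 0.07, and Chac1 0.08 at 978.5 mg/kg. Trib3 rose by 0.92 at 489.2 mg/kg (limma adjusted p = 0.0249) and had 0.68 at 978.5 mg/kg (limma adjusted p = 0.0549). Its call at 489.2 mg/kg was lost without vehicle replicate 4, without replicate 1 of the dose, or with the replicate number as a block. At 978.5 mg/kg Trib3 passed in some alternatives, among them the mean of its probe sets (0.98, limma adjusted p = 0.0195) and the fit without vehicle replicate 2 (0.0278). At 244.6 mg/kg 6 genes of the list rose (20%, against 2.52% of all genes). At 489.2 mg/kg 4 rose (Asns, Psat1, Trib3 and Slc3a2), or 13.3% against 1.51% of all genes. Cth fell there, which is 3.33% of the list against 1.39% of all genes. No synthetase gene passed at either dose. The Asns call at 489.2 mg/kg was lost without replicate 1 of the dose, and that of Psat1 without vehicle replicate 2 or replicate 1 or 2 of the dose. The Asns, Psat1 and Phgdh means at 244.6 mg/kg stood above vehicle, as the plot of single arrays shows. At 61.2 and 122.5 mg/kg no gene of the list passed, while 24 and 21 of the 30 lay above 0. The medians of the list there were 0.24 and 0.06, and its highest differences 1.55 and 1.58.

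**Figure D5:**
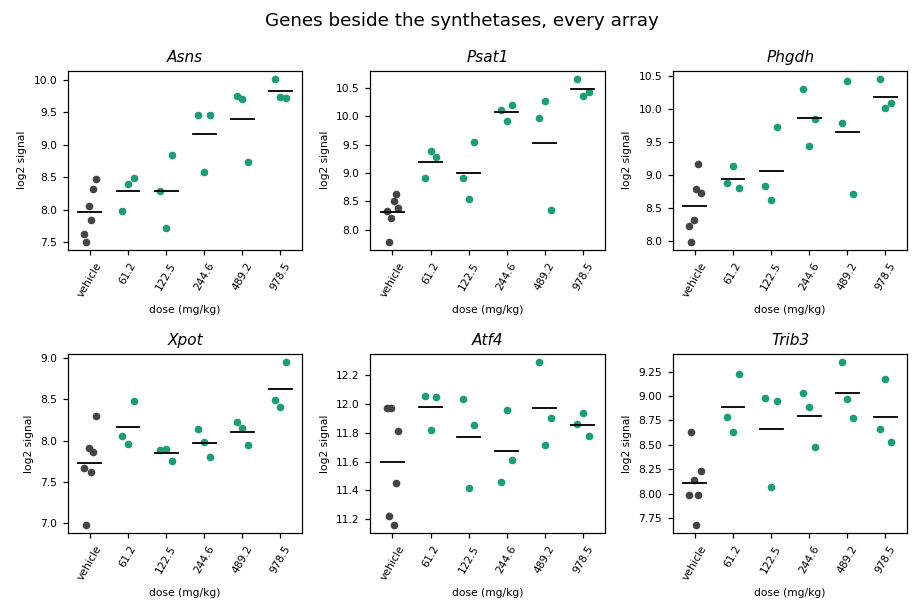
Log2 signal (vertical axis) of Asns, Psat1, Phgdh, Xpot, Atf4 and Trib3 on every array, by dose in mg/kg (horizontal axis), with vehicle at the left and a bar at each group mean. Asns, Psat1 and Xpot show all 978.5 mg/kg arrays above all vehicle arrays, and the Atf4 groups overlap.

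Among 11 sensors of uncharged tRNA and of amino acids, Eif2s1, the eIF2 alpha subunit, rose by 0.36 ± 0.10 (limma adjusted p = 0.0199, lost without replicate 1 or 3 of the dose) and the other 10 did not pass. The 1 gene is 9.09% of the list, near the 6.18% of all genes that rose. By limma, none of 9 cytosolic elongation factors passed. Of 47 cytosolic ribosomal protein genes 0 rose and 5 fell at 978.5 mg/kg, or 10.6% against 4.07% of all genes (Rps23, Rps28, Rpl34, Rpl27a and Rps29, by 0.18 to 0.26), with a median of -0.11. Each of these 5 calls was lost when at least 1 array was left out. Of 70 mitochondrial ribosomal protein genes 6 rose (8.57%, against 6.18% of all genes) and 1 fell (1.43%, against 4.07%), with a median of 0.05. Mrpl49 had the largest difference there, 0.62 ± 0.07 (limma adjusted p = 2.66e-05), and Mrpl50 followed with 0.55 ± 0.13 (lost without replicate 3 of the dose), while Mrpl48 fell by 0.45. By limma, none of 13 interferon answering genes passed, and Wars1 did not either.

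The cell mix of the tissue samples was described by marker lists. On the 978.5 mg/kg arrays macrophage markers averaged 8.92 to 9.36, against 9.48 to 10.01 in vehicle, with 1 of 7 (Cd163, -0.77 ± 0.21) that fell and all 7 below 0. Red blood cell markers averaged 8.42 to 9.19, against 9.23 to 10.29, and 3 of 4 (Hbb, Hba-a3 and Alas2) fell. The shares that fell were 14.3% of the macrophage and 75% of the red blood cell list, against 4.07% of all genes. Lymphocyte markers averaged 5.57 to 5.79, against 5.79 to 6.11, and stellate markers 7.71 to 8.20, against 8.11 to 8.49, where Reln fell. Endothelial markers averaged 8.93 to 9.46, against 8.99 to 9.80. Their mean was lowest on the array numbered 1 in all 6 groups, at 8.78 to 8.99 on those arrays and 9.32 to 9.80 on the others. Bile duct markers averaged 6.88 to 6.95, against 6.62 to 7.17, where Epcam rose by 0.64 ± 0.13. Of these calls all but that of Epcam were lost without replicate 1 or replicate 3 of the dose. The part of these shifts in the synthetase differences was not tested.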

How the data were processed

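RNA of 21 liver samples (100 ng per array) was hybridised to Affymetrix rat arrays, 1 array a sample. The deposited log2 values were normalized by the authors with RMA, per the submitters' processing notes; its version is not given in the sources used here. Of 31099 probe sets, 20832 had 1 gene in the platform annotation, 436 had several and 9831 none; the highest-mean probe set of each gene gave 14218 genes. No column was left unmapped.

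Groups followed the dose label. limma 3.58.1 in R 4.3.3 was fitted over all 21 arrays with 1 mean per group, without covariates, and p-values were adjusted by Benjamini-Hochberg over all genes (threshold 0.05); the script was tested on simulated data. The trend used dose ranks 0 to 5. Tables and figures used Python 3.11.15, pandas 2.3.3 and matplotlib 3.10.9. The number of arrays limits the precision.

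The synthetase genes and the gene lists were chosen with earlier results of these data known, so no list has a test. Values per array were given for synthetase genes called at any dose or in the trend; of each list at most 5 called genes by size plus 7 fixed ones were to be named. The array values of Hars1, Tars1, Eprs1, Xpot and Asns, and Farsa, Farsb and Tars3, were added after their values were seen. The comparison of 978.5 with 489.2 mg/kg and the alternatives for genes outside the family were added after seeing the data. The multi-synthetase complex enzymes were grouped after seeing the data. Alternatives were other probe set rules, filters, variance priors, scalings, a replicate block, fewer arrays and each array left out. Some items are not reported here.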

Additional observations from a re-analysis of the deposited data

How the results depend on the processing

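At 61.2, 122.5 and 244.6 mg/kg the count of synthetase genes called was 0 under every alternative, and no called value changed sign. At 489.2 mg/kg the count of 0 became 1 (Sars1) with genes above the median level alone or with median centring, and 0 to 2 with each array left out. With the replicate number as a block it became 2 (Eprs1 and Yars1) at 489.2 mg/kg and 9 at 978.5 mg/kg, where Eprs1 and Yars1 were called and Hars2 was not. The block left the trend count at 10, with Eprs1 and Hars1 in place of Iars1 and Ears2. Vehicle arrays whose number no dose group carries, replicate 6 among them, did not enter the differences or slopes of the block fits. Changes under the block therefore cannot be told apart from leaving those vehicle arrays out. The labels do not say what a number stands for. Of 45 same-numbered pairs of arrays from different groups 17 deviated together with a correlation over 0.1 (-0.23 to 0.37, mean 0.04), as did 17 of 90 pairs of other numbers (-0.33 to 0.23, mean -0.02), and 10 of 18 arrays correlated best with their own number, 5 of 6 for number 1. The rule used asked for every same-numbered pair to be over 0.1, so the numbers were not taken as pairs. An effect shared by only some arrays of a number would not meet that rule, so the rule cannot exclude it. The main fits and their p-values take no account of the numbers. The mean of the endothelial markers was lowest on number 1 in all 6 groups. For stellate and lymphocyte markers this was so in 5 groups, for macrophage and red blood cell markers in 4, for bile duct markers in 3 and for hepatocyte markers in 0. The median of the synthetase genes was highest on number 1 at 122.5, 244.6 and 978.5 mg/kg, but not in vehicle or at 61.2 or 489.2 mg/kg. At 978.5 mg/kg the count of 8 was 2 (Aars1 and Iars2) when only the arrays compared were fitted, a fit with fewer arrays, and 1 to 9 with each array left out, lowest without replicate 3 of the dose and highest without vehicle replicate 6. It was 2 without replicate 1 of the dose and 3 without vehicle replicate 2. The median of the family, 0.07, was 0.18 with genes above the median level alone, where fewer genes were tested, and was 0.03 to 0.13 with each array left out. The trend count of 10 was 1 (Eprs1) with the treated arrays alone, and 3 to 10 with each array left out. Averaging the probe sets of each gene gave 9 called genes at 978.5 mg/kg, with Gars1 and Hars1 among them, and 12 in the trend. Except for the fit without vehicle replicate 6 at 978.5 mg/kg, no share of all genes called stands beside these alternative counts. Whether calls changed in the family alone or over all genes cannot be told from them. Scaling moved the median of all genes by under 0.1. Apart from the arrays left out, the causes were not tested. With 3 arrays a dose and differences well under 1 log2 unit, genes near the threshold, Nars1, Rars2 and Hars2 above all, were called in some settings and not in others. Of 2326 single-gene alternatives, 2095 kept their side of the threshold, 202 lost the call and 29 gained it. These include genes outside the family and genes at doses where they had no call to lose, so the total does not measure how the calls held. At 978.5 mg/kg Aars1 was called in 17 of 17 alternatives, Iars1 in 13 and Hars2 in 2.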
